A study of Mus musculus with 16 samples.

Results

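The comparison is between the 2 experiments of the study: the 8 libraries titled RAW15 (experiment 2) against the 8 titled RAW14 (experiment 1), which together are all 16 libraries of the series. Every library is total RNA of RAW 264.7, a mouse macrophage-like cell line transformed by Abelson leukaemia virus, transfected for 24 h with 25 nM siRNA and sequenced from the 3′ ends of its transcripts with QuantSeq. Each experiment holds the same 4 treatments with 2 replicates: control siRNA, siRNA against the transcription factor Cebpb, and each of these followed by isoproterenol, an agonist of β-adrenergic receptors. All groups were therefore transfected and no untransfected cells are among them. The labels state neither the dose of isoproterenol nor how long it was given. The labels give each library an experiment number and say nothing of passage, date, reagent lot or sequencing run, so culture history, handling, library preparation and sequencing cannot be told apart. With 1 culture experiment on each side, p-values measure only the spread between libraries within these 2 experiments, part of which may be technical.

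Library totals ranged from 13.7 to 24.2 M reads in experiment 1 and from 9.42 to 25.2 M in experiment 2, where the Cebpb siRNA library of replicate 2 was the shallowest. Levels below are RPM (a gene's reads per 1 M reads sequenced in its library) as deposited, in which values of 1 RPM or less are listed as 0. Differences are on the log2 scale after scaling between libraries, experiment 2 minus experiment 1, ± SE, and a gene is called when its adjusted p in limma is under 0.05. Cebpb was lower in the knockdown libraries of both experiments. It stood at 74.5 and 61.3 RPM in experiment 1 and 81.4 and 87.3 RPM in experiment 2 with control siRNA. The knockdown libraries without isoproterenol held 11.8 and 25.0 RPM in experiment 1 and 21.8 and 33.1 RPM in experiment 2. After isoproterenol the controls held 101 and 78.0 RPM in experiment 1 and 99.1 and 90.6 RPM in experiment 2, and the knockdown libraries 28.5 and 27.6 RPM in experiment 1 and 25.8 and 23.9 RPM in experiment 2. Every knockdown library was below every control siRNA library. An siRNA effect, here and below, is the mean of the log2 effects without and with isoproterenol. For Cebpb it was −1.76 in experiment 1 and −1.68 in experiment 2. The difference of these effects was not called (adjusted p 0.918), nor was the overall difference of Cebpb between the experiments (log2 difference 0.22, SE 0.13, adjusted p 0.221).

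The widest differences between the experiments were in the type I interferon response. In this pathway an interferon binds the receptor chains IFNAR1 and IFNAR2, the kinases JAK1 and TYK2 phosphorylate transcription factors such as STAT2, and a complex that includes IRF9 enters the nucleus and binds the interferon-stimulated response element in the promoters of many antiviral genes. Several of the induced genes, among them Stat2, Irf9 and Irf7, encode parts of the pathway itself, so that cells exposed to a little interferon carry more of the machinery. Macrophages are known for a constitutive low activity of this loop and for a fast response to nucleic acids and microbial products.

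The core of the response element, GAAANNGAA on either strand, was searched in the RefSeq promoters of the GRCm38.p6 build, from 250 bases before to 50 bases after the start site, which were matched for 8428 of the tested genes. It was in 8.9% of all these promoters and in 8.2% of those of genes not called, against 61.8% (21 of 34) of the promoters matched for the type I interferon list and 12.9% of those of all genes called higher. Of the genes called lower, 7.6% held it. The windows below are from some members of that list that averaged at least 10 RPM and whose promoters held the core. Having the core put these genes here, not the size of their difference. Isg15 differed by 1.74 and Bst2 by 0.59, against a list median of 1.11. Each window runs 5′ to 3′ on the gene's strand, lies before the start site, and has the matched core in capitals. Some windows hold the core on the opposite strand, read there as its reverse complement.
Rsad2, chr12:26456548-26456586, minus strand: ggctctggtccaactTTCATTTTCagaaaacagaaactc
Isg15, chr4:156200861-156200911, minus strand: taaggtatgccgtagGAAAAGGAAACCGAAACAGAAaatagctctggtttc
Trim30a, chr7:104465205-104465243, minus strand: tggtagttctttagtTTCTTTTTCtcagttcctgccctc
Slfn8, chr11:83020834-83020872, minus strand: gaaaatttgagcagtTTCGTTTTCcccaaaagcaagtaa
Oas1g, chr5:120887614-120887646, minus strand: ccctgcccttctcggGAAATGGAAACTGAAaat
Oas3, chr5:120777705-120777749, minus strand: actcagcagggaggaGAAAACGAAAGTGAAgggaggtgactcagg
Phf11b, chr14:59341357-59341395, minus strand: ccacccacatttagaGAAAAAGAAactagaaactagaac
Stat2, chr10:128270262-128270300, plus strand: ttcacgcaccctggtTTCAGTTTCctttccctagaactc
Bst2, chr8:71537573-71537617, minus strand: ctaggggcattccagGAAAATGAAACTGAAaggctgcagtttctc
The 250 bases before the start site of Isg15 place its 3 overlapping matches close to the start, with the matched bases 78 to 58 before it.
Isg15, chr4:156200819-156201068, minus strand: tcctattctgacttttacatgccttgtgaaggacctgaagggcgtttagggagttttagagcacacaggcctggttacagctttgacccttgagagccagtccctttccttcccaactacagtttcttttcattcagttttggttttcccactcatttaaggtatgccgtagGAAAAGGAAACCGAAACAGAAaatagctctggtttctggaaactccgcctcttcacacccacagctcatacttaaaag
Overlapping cores also stood in Oas1g, Oas3 and Bst2, which each held 2. A match is a description of letters and not a bound site.

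Of 11141 genes tested, 3627 (32.6%) were called between the experiments, 1899 higher (17.0%) and 1728 lower (15.5%) in experiment 2. The differences were mostly small: the median size among called genes was 0.284 log2 units (1.22-fold), and 47 genes were at least 2-fold higher and 9 at least 2-fold lower. Of the 47, 32 belonged to the lists of type I interferon and interferon gamma targets. Of the called genes, 3256 had the same sign within each of the 4 treatments. For 178 genes (1.60%) the RPM ranges of the 8 and 8 libraries did not overlap at all, 91 higher and 87 lower. Within single treatments, 1016 genes were called in the control siRNA group (9.12%) and 722 in the group that also had isoproterenol (6.48%). For Cebpb siRNA the numbers were 1071 (9.61%) without and 1229 (11.0%) with isoproterenol. Without scaling between libraries the share of higher calls moved from 54.3% to 70.7% with control siRNA and from 57.3% to 44.8% with Cebpb siRNA, so the balance of directions within those treatments rests on the scaling.

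Treatment accounted for 73.7% of the variation among the tested genes, the experiment for 10.5%, the combination of both for 5.05% and replicates for 10.8%. Once the means of the treatments were removed, the first principal component held 40.4% of the variation and put the experiments apart, at −15.15 to −11.26 for experiment 1 and 8.91 to 15.12 for experiment 2. Control siRNA libraries and Cebpb siRNA libraries share no sample but come from the same 2 experiments. Each kind was also fitted alone over the same 11141 genes. Of these, 3188 were called in the first and 1395 in the second, with 939 in both (29.5% and 67.3%), of which 931 had the same sign. Of the 3188, 2836 (89.0%) had the same sign in the Cebpb siRNA libraries, against 71.2% of all genes tested. With scaling and filter also set within each kind, 3432 of 10729 genes were called in the control siRNA libraries (32.0%; 16.5% higher, 15.5% lower) and 1463 of 10760 in the Cebpb siRNA libraries (13.6%; 7.38% higher, 6.22% lower). Counts of list members in one kind of library alone, given below, come from these fits and are to be read against those shares. The plot of all tested genes shows the spread of these differences against expression level.

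**Figure D1:**
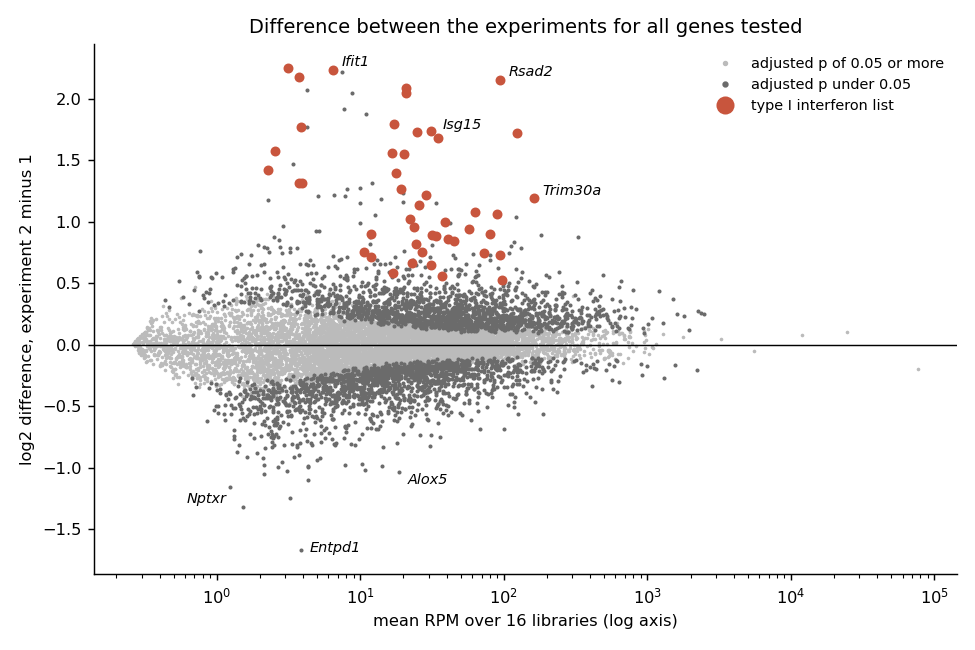
Each point is a gene, with its mean level over the 16 libraries in RPM on a log axis and its log2 difference, experiment 2 minus experiment 1, on the vertical axis; red points are the 46 genes of the type I interferon list. All 46 lie above 0, between 0.53 and 2.25, while most called genes lie within 1 log2 unit of 0.

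All 46 tested members of the type I interferon list were called higher in experiment 2, with a median of 1.11, against a median of −0.002 and 17.0% called higher over all genes. The members of the gene lists were chosen with earlier results of these data known. The count of 46 is therefore a description and not an independent test. The differences ran from 0.53 for Ifi27l2a to 2.25 for Ifit3b, and 26 members were at least 2-fold higher. The summed level of the list was 606 to 1650 RPM in experiment 1 and 1696 to 3053 RPM in experiment 2, so the lowest sum of experiment 2 exceeded the highest of experiment 1. In these bulk libraries a larger share of responding cells and more transcript per cell cannot be told apart. Rsad2, which encodes viperin, an enzyme that makes a chain-terminating nucleotide, stood at 25.9, 31.9 and 44.8 RPM (lowest, median and highest of 8 libraries) in experiment 1 and 76.3, 163 and 198 RPM in experiment 2. The ranges did not overlap, and the level was 4.45-fold higher (log2 difference 2.15, SE 0.17, adjusted p 1.28e-07). Cmpk2, the neighbour of Rsad2 and a nucleotide kinase, was at 3.46, 8.92 and 14.7 RPM against 25.5, 32.3 and 40.8 RPM, again without overlap (log2 difference 2.09, SE 0.17, adjusted p 3.75e-08). Usp18, a protease that removes ISG15 and restrains the receptor, was at 4.62, 8.85 and 13.3 RPM against 28.9, 32.4 and 36.3 RPM (log2 difference 2.05, SE 0.13, adjusted p 6.15e-10).

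Isg15, the ubiquitin-like modifier of the response, was at 4.96, 15 and 30.1 RPM in experiment 1 and 23.8, 44.0 and 77.1 RPM in experiment 2 (log2 difference 1.74, SE 0.11, adjusted p 6.47e-10). Its ranges over all 8 libraries overlapped, but within each of the 4 treatments both libraries of experiment 2 were above both of experiment 1. The sensors and effectors of the 2′-5′-oligoadenylate pathway and its relatives were higher too. Oasl2 was at 2.59, 8.21 and 15.3 against 11.2, 23.9 and 46.6 RPM (log2 difference 1.80, SE 0.11, adjusted p 5.29e-10). Oasl1 was at 3.31, 7.10 and 18.1 against 11.3, 21.2 and 40.3 RPM (log2 difference 1.56, SE 0.14, adjusted p 3.75e-08). The related Oas2, Oas1g, Oas3 and Oas1a were higher by 1.14 ± 0.11, 0.96 ± 0.10, 0.89 ± 0.12 and 0.89 ± 0.13. Multimapping and ambiguous reads are listed apart from the genes in the deposited values, so reads of these near-identical paralogs may be lost. Ifit1, which binds RNA with foreign 5′ ends, was low in experiment 1, at 0, 2.31 and 4.95 RPM, and at 6.34, 9.22 and 17.2 RPM in experiment 2 (adjusted p 5.29e-10); as 3 of the 8 libraries of experiment 1 are listed at 0, no fold is given.

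Receptors for foreign nucleic acid in the cytosol were higher too. Ddx58 (RIG-I) had a mean of 58.3 RPM in experiment 1 and 101 RPM in experiment 2 (0.90 ± 0.08), Ifih1 (MDA5) 29.6 and 52.2 RPM (0.86 ± 0.07), and Dhx58, another helicase of the family, 8.29 and 13.0 RPM (0.75 ± 0.11). Eif2ak2, the kinase PKR that halts translation on double-stranded RNA, had means of 72.4 and 114 RPM (0.73 ± 0.07). Ifi204, a member of the DNA-binding p200 family, was at 5.67, 10.2 and 15.5 RPM against 25.8, 29.3 and 33.4 RPM without overlap (log2 difference 1.55, SE 0.12, adjusted p 5.66e-09). Trim30a, a regulator of signalling by Toll-like receptors, was at 58.7 to 144 RPM against 184 to 277 RPM (log2 difference 1.19, SE 0.08, adjusted p 1.25e-09). Further members differed in the same direction. Ifi44 was at 17.7, 65.5 and 133 RPM against 90.4, 174 and 279 RPM (log2 difference 1.72, SE 0.15, adjusted p 3.25e-07), and the receptor chaperone gene Rtp4 at 4.88, 17.3 and 41.2 RPM against 25.4, 48.7 and 77.2 RPM (log2 difference 1.68, SE 0.15, adjusted p 8.47e-08). Xaf1, linked to cell death, was at 4.40, 10.5 and 17.9 RPM against 15.7, 24.2 and 37.3 RPM (log2 difference 1.40, SE 0.11, adjusted p 7.04e-09).

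**Figure D2:**
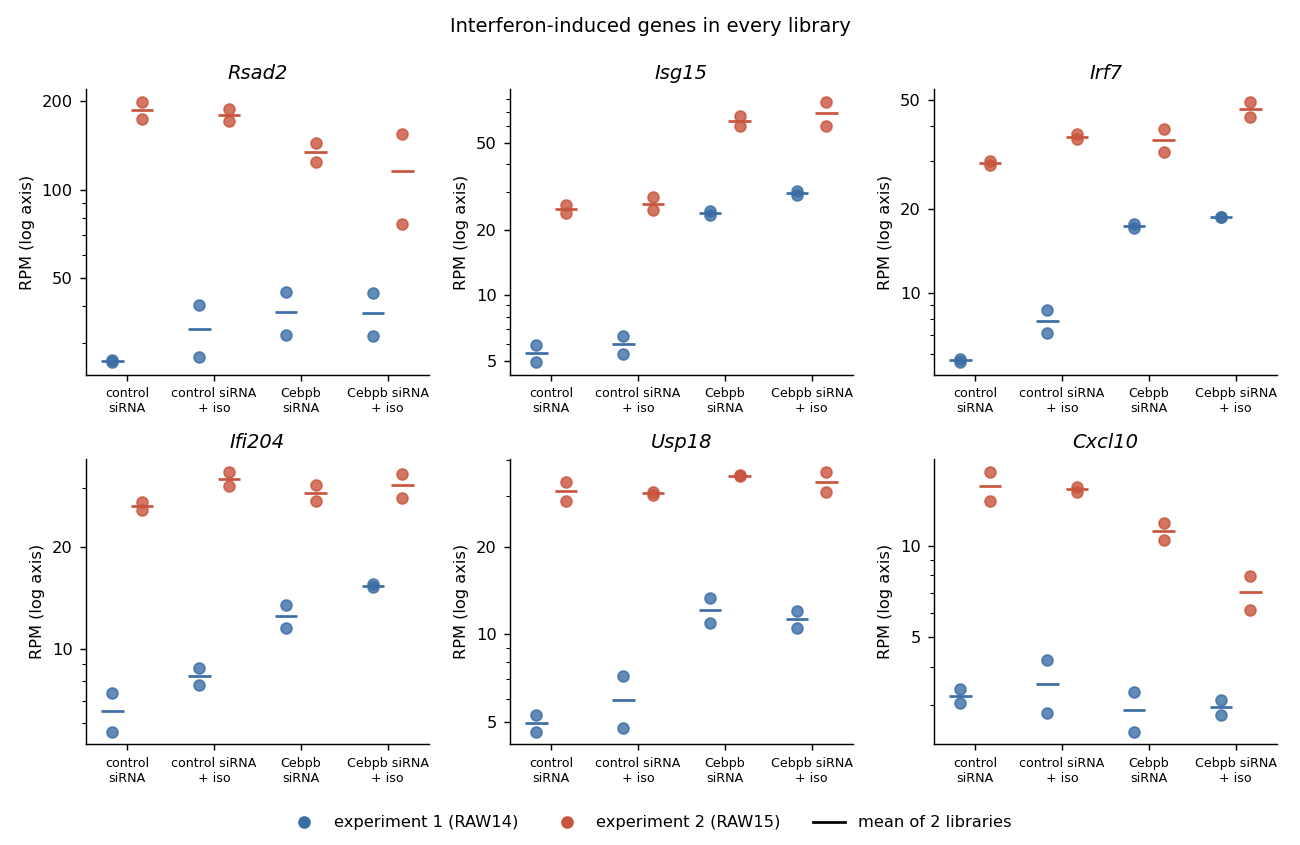
Each point is 1 library, placed by treatment (iso, isoproterenol) and coloured by experiment, with RPM on a log axis and a bar at the mean of the 2 libraries. In all 6 genes and all 4 treatments both libraries of experiment 2 lie above both of experiment 1; for Rsad2 the ranges are 25.9 to 44.8 and 76.3 to 198 RPM.

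The parts of the pathway upstream of these targets differed by their role (a list made after the values of the targets were seen). All 21 interferon ligand genes in the files, those of the alpha family with Ifnab, and Ifnb1, Ifne, Ifnk, Ifnz, Ifng, Ifnl2 and Ifnl3, were listed at 0 in all 16 libraries, so any ligand transcript was at or under 1 RPM in both experiments. Of 12 tested receptors, kinases and factors, 4 were higher and 2 lower. The chains of the type I receptor were not called: Ifnar1 was at 16.2 to 27.2 RPM against 16.3 to 24.6 RPM (log2 difference −0.10, SE 0.07, adjusted p 0.283), and Ifnar2 at 40.0 to 72.0 against 40.1 to 73.5 RPM (log2 difference −0.05, SE 0.04, adjusted p 0.338). Of the interferon gamma receptor, Ifngr1 was lower, at 14.9, 19.2 and 22.5 RPM against 9.51, 13.5 and 24.9 RPM with overlapping ranges (log2 difference −0.41, SE 0.09, adjusted p 0.00101), and Ifngr2 was not called (0.03 ± 0.05). Jak1 (−0.10 ± 0.04) was not called, and Tyk2 was lower by a margin that an unscaled fit lost (−0.15 ± 0.06, adjusted p 0.0401; 0.0632 without scaling). The induced factors were higher. Stat2 was at 12.8, 17.2 and 24.9 RPM against 22.4, 28.4 and 44.0 RPM (log2 difference 0.82, SE 0.06, adjusted p 7.54e-09), and Irf9 at 26.6, 29.5 and 33.9 against 32.0, 45.3 and 57.4 RPM (log2 difference 0.56, SE 0.06, adjusted p 8.08e-07). Irf7, the factor that amplifies interferon alpha transcription, was at 5.62, 12.9 and 18.8 against 28.9, 36.8 and 48.9 RPM with no overlap (log2 difference 1.73, SE 0.13, adjusted p 8.15e-09). The constitutive factor Irf3, in contrast, was at 9.56 to 15.2 against 10.5 to 15.4 RPM and was not called (log2 difference 0.03, SE 0.07, adjusted p 0.771).

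Interferon gamma has a receptor of its own and is known for inducing guanylate-binding proteins, immunity-related GTPases and genes of antigen presentation. Of 18 tested members of that list, 13 were higher and 1 lower, with a median of 0.59. Gbp7, a guanylate-binding protein, was at 1.61, 4.11 and 9.56 RPM against 7.54, 16.3 and 29.6 RPM (log2 difference 1.88, SE 0.11, adjusted p 5.29e-10). Igtp, Irgm1 and Irgm2, GTPases that act on pathogen vacuoles, were at 3.34, 5.76 and 11.2, 4.83, 8.57 and 12.9 and 4.93, 12.7 and 22.1 RPM in experiment 1 and 9.25, 12.4 and 19.9, 12.8, 18.4 and 25.9 and 14.8, 22.9 and 49.8 RPM in experiment 2. Cxcl10, a chemokine for activated T cells, was at 2.446, 3.08 and 4.22 RPM against 6.16, 13.0 and 17.5 RPM without overlap (log2 difference 1.92, SE 0.13, adjusted p 6.91e-10). The immunoproteasome subunit Psmb10 was at 37.5, 42.0 and 49.3 against 54.7, 63.5 and 81.9 RPM, also without overlap (log2 difference 0.65, SE 0.05, adjusted p 3.32e-09). Irf8, a lineage factor of macrophages, was the member called lower, with means of 117 and 103 RPM (−0.23 ± 0.05). Psmb9, Cd274 and Socs3 were not called (0.15 ± 0.06, 0.06 ± 0.13 and −0.11 ± 0.12). Tap1, which pumps peptides into the endoplasmic reticulum for MHC class I, was at 16.6, 20.4 and 22.02 against 26.9, 32.9 and 36.8 RPM (log2 difference 0.68, SE 0.07, adjusted p 1.33e-07). H2-DMa, which loads peptides on class II, was lower, at 2.898, 5.20 and 7.54 against 1.71, 2.85 and 4.89 RPM (log2 difference −0.73, SE 0.11, adjusted p 2.56e-05); over the antigen presentation list 10 of 19 members were higher and 3 lower.

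The 15 genes at least 2-fold higher outside these 2 lists held further genes of like families and a few others. Ifi44l was at 1.76, 3.23 and 6.54 RPM against 11.9, 14.2 and 15.1 RPM (log2 difference 2.05, SE 0.17, adjusted p 2.49e-08), Ifi202b at 41.6, 81.3 and 129 against 133, 161 and 205 RPM, Parp12 at 15.7, 21.4 and 24.2 against 29.9, 48.2 and 66.4 RPM and Ddx60 at 2.20, 4.74 and 7.81 against 7.12, 9.57 and 15.4 RPM. The genes that follow were not of those families. Acod1, which makes itaconate from aconitate in activated macrophages, was at 2.55, 5.94 and 14.0 RPM against 6.16, 15.5 and 32.0 RPM (log2 difference 1.32, SE 0.09, adjusted p 1.35e-09). Ccl5 and Ccl7, chemokines for T cells and monocytes, were at 4.06, 5.91 and 7.73 and 5.56, 12.3 and 19.8 RPM against 10.9, 14.0 and 18.3 and 15.1, 24.7 and 54.7 RPM (log2 difference 1.27, SE 0.10, adjusted p 1.23e-08 for Ccl5 and log2 difference 1.23, SE 0.10, adjusted p 1.97e-08 for Ccl7). Fabp4, a fatty acid carrier of macrophages, was at 1.65, 3.67 and 8.11 against 3.51, 10.5 and 24.8 RPM (log2 difference 1.26, SE 0.12, adjusted p 1.21e-07).

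The effect of Cebpb siRNA on some of these genes differed between the experiments. Over the type I interferon list the median siRNA effect was 1.23 in experiment 1 and 0.76 in experiment 2. Over all genes the siRNA effect differed between the experiments for 67 of 11141 (0.601%). The signed effect was higher in experiment 2 for 31 and lower for 36, and without scaling the split was 19 and 53. Of the 67, 13 belonged to the 2 interferon lists, and for 12 of those the signed effect was lower in experiment 2. Cmpk2 had an siRNA effect of 1.82 in experiment 1 and 0.47 in experiment 2 (difference −1.34 ± 0.17, adjusted p 0.0003). Ifi44 had effects of 2.64 and 1.53 (difference −1.12 ± 0.12, adjusted p 9.73e-05) and Irf7 of 1.49 and 0.41 (−1.08 ± 0.11, adjusted p 9.73e-05). For Rtp4 the difference was −1.11 ± 0.13 (adjusted p 0.000264). The levels show where this lies. Without isoproterenol, Irf7 stood at 5.62 and 5.75 RPM in experiment 1 and 28.9 and 30.1 RPM in experiment 2 with control siRNA. With Cebpb siRNA it stood at 17.6 and 17.2 RPM in experiment 1 and 39.2 and 32.4 RPM in experiment 2. In these libraries without isoproterenol the experiments were further apart with control siRNA (2.33) than with Cebpb siRNA (1.07). Rsad2 did not pass this test: its siRNA effects were 0.42 and −0.49 (adjusted p 0.175). The count of 67 depends on single libraries: it was 299 without the Cebpb siRNA library of replicate 2 of experiment 2, the shallowest, and as low as 33 without another.

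**Figure D3:**
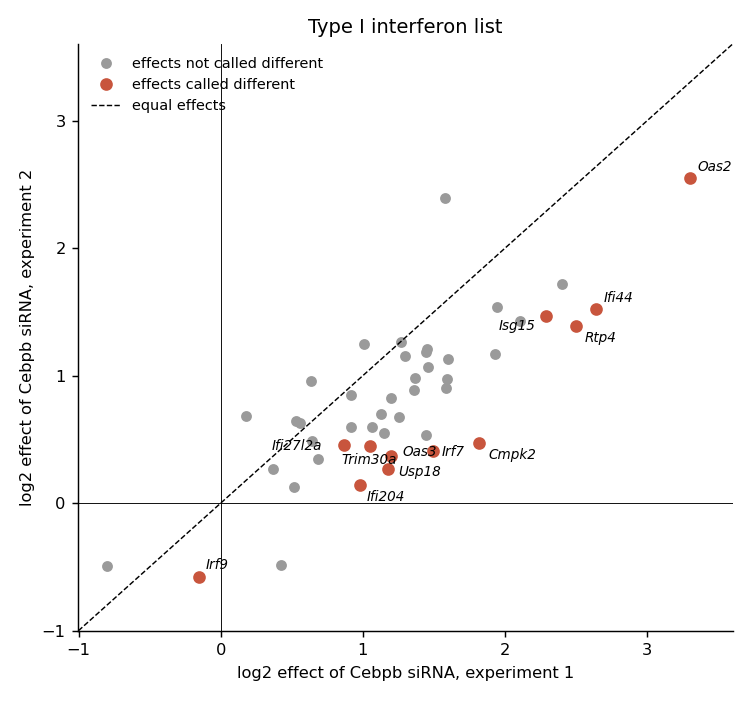
Each point is 1 of the 46 genes of the type I interferon list, with the log2 effect of Cebpb siRNA in experiment 1 on the horizontal and in experiment 2 on the vertical axis. The 12 red points, whose effects were called different, all lie below the dashed line of equal effects.

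Genes outside the interferon lists whose siRNA effect differed had other patterns. The levels of the next 2 genes are from the libraries without isoproterenol, while the effects are averaged over both. Mmp9, a secreted protease that degrades matrix, stood at 154 and 138 RPM in experiment 1 and 77.8 and 96.7 RPM in experiment 2 with control siRNA. With Cebpb siRNA it stood at 171 and 186 RPM in experiment 1 and 179 and 187 RPM in experiment 2. The averaged siRNA effect on Mmp9 was 0.06 in experiment 1 and 0.88 in experiment 2 (difference 0.82 ± 0.09, adjusted p 0.000264). Neat1, the long noncoding RNA that scaffolds paraspeckles, stood at 105 and 106 RPM in experiment 1 and 95.8 and 87.2 RPM in experiment 2 with control siRNA. With Cebpb siRNA it stood at 54.9 and 46.3 RPM in experiment 1 and 72.5 and 78.1 RPM in experiment 2. The averaged siRNA effect on Neat1 was −1.202 in experiment 1 and −0.18 in experiment 2 (difference 1.02 ± 0.16, adjusted p 0.00328). Nfkbie, an inhibitor of NF-κB, had effects of 0.74 and 1.58 (0.84 ± 0.13, adjusted p 0.00232), and Hal, which degrades histidine, effects of −0.79 and −1.71 (−0.92 ± 0.13, adjusted p 0.00128). For isoproterenol, limma called 0 genes as differing in effect between the experiments, with 519 genes (of 11141) at an unadjusted p under 0.05. For the siRNA effect the corresponding number was 1425.

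Genes that build ribosomes were higher in experiment 2, by smaller amounts. Of 30 tested genes of the nucleolus, where ribosomal RNA is made and processed, 23 were higher and 0 lower, with a median of 0.28 (the background being 17.0% higher and 15.5% lower). Tsr1, which matures the small subunit, was at 57.9, 66.2 and 93.3 RPM in experiment 1 and 76.5, 109.6 and 151 RPM in experiment 2 (log2 difference 0.62, SE 0.06, adjusted p 3.36e-08). The ranges overlapped, but both libraries of experiment 2 were higher in each treatment. Nop58, a core protein of the box C/D particles that methylate ribosomal RNA, was at 112, 170.1 and 240.2 against 155, 227 and 302 RPM (log2 difference 0.43, SE 0.04, adjusted p 6.86e-08). Gnl3 (nucleostemin) was at 22.04, 50.8 and 81.1 against 40.0, 74.1 and 116 RPM (log2 difference 0.56, SE 0.06, adjusted p 3.66e-07), and the helicase Ddx21 at 118, 157 and 200 against 153, 215 and 258 RPM (log2 difference 0.43, SE 0.04, adjusted p 4.17e-07). The abundant Npm1 and Ncl had means of 669.5 and 919 RPM and of 1322 and 1715 RPM (0.44 ± 0.06 and 0.37 ± 0.05). In Cebpb siRNA libraries alone 12 members were higher and 0 lower, with a median of 0.27, and in control siRNA libraries alone 24 and 0, with a median of 0.31.

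The host genes of small nucleolar RNAs, whose introns carry those RNAs and whose spliced transcripts are degraded when translation is active, were on the whole in the same direction: 11 of 18 in the list of hosts and long noncoding RNAs were higher and 3 lower, with a median of 0.32. Zfas1 was at 41.7, 56.9 and 83.6 RPM against 52.9, 98.7 and 158 RPM (log2 difference 0.73, SE 0.07, adjusted p 8.02e-08). Gas5 was at 105, 136 and 177 against 142, 192 and 256 RPM (log2 difference 0.49, SE 0.04, adjusted p 2.14e-08), and Snhg1 at 47.8, 80.0 and 112 against 49.4, 113 and 196 RPM (log2 difference 0.51, SE 0.07, adjusted p 1.10e-05). The cytosolic ribosomal proteins themselves differed little: 15 of 81 were higher and 4 lower, the median was 0.05, and no difference was called in their summed level (exact permutation test within treatments, two-sided, adjusted p 0.441 over 12 library measures). CACGTG, the word bound by Myc and related factors, was in 23.1% (6 of 26) of the promoters matched for the nucleolar list and 12.4% of all. Myc itself was listed at 0, that is at or under 1 RPM, in every library but 1, where it was at 1.06 RPM. A part of Myc in these differences was not tested.

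Chaperones were higher in both the endoplasmic reticulum and the cytosol. In the list of endoplasmic reticulum chaperones and the unfolded protein response, 17 of 22 were higher and 1 lower, with a median of 0.25. Dnajc3, a co-chaperone that also restrains the kinase PERK, was at 48.5, 67.0 and 93.0 RPM against 64.3, 94.8 and 139.9 RPM (log2 difference 0.47, SE 0.05, adjusted p 8.57e-07). Calr (calreticulin, a lectin chaperone) was at 462, 557 and 753 against 514, 750.2 and 888 RPM (log2 difference 0.35, SE 0.04, adjusted p 3.18e-06), and Hsp90b1 (GRP94) at 476, 719.7 and 1071 against 561, 911 and 1339 RPM (log2 difference 0.29, SE 0.03, adjusted p 1.17e-06). The master chaperone Hspa5 (BiP) had means of 2132 and 2596 RPM (0.26 ± 0.04). The regulators Xbp1 and Atf6 did not share the direction: Xbp1 was not called (−0.06 ± 0.05) and Atf6 was lower (−0.20 ± 0.04). Factors of the ATF4 list, given below, were higher. The list's median was 0.34 with control siRNA, 0.24 with Cebpb siRNA, and 0.33 and 0.05 with isoproterenol added to each. In the Cebpb siRNA libraries alone 3 members were higher and 1 lower, with a median of 0.17. CCAAT, part of the element through which ATF6 and NF-Y act, was in 88.9% (16 of 18) of the promoters matched for the list, against 43.2% of all.

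In the cytosol, 12 of 17 tested heat shock genes were higher and 0 lower, with a median of 0.23. Hsp90aa1, the inducible HSP90, was at 226, 276 and 294 RPM in experiment 1 and 324, 381 and 428 RPM in experiment 2 with no overlap (log2 difference 0.51, SE 0.05, adjusted p 8.29e-08). Hsph1, a nucleotide exchange factor for HSP70, was at 97.6, 106 and 122 against 112, 143 and 158 RPM (log2 difference 0.39, SE 0.05, adjusted p 1.98e-06), and Hspd1, the mitochondrial chaperonin, at 261, 397 and 584 against 331, 542 and 759 RPM (log2 difference 0.39, SE 0.05, adjusted p 4.06e-06). The factors Hsf1 (0.04 ± 0.13) and Hsf2 (−0.15 ± 0.07) were not called. GAANNTTC, the core of the heat shock element, was in 53.8% (7 of 13) of the promoters matched for this list and 6.9% of all. Of 31 proteasome genes 10 were higher and 0 lower, led by Psma4 at 88.7, 101 and 138 against 106, 142 and 172 RPM (log2 difference 0.40, SE 0.05, adjusted p 2.66e-06). Most of the proteasome genes were above 54 RPM, a level at which 32.0% of all tested genes were higher and 11.9% lower. Their count of higher genes was near that share. In the ATF4 list, 5 of 25 were higher and 6 lower. The factors Atf4 (0.165 ± 0.052), Ddit3 (0.30 ± 0.09) and Atf5 (0.22 ± 0.07) were among the higher ones. Slc7a5 (−0.27 ± 0.05) was among the lower ones.

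Sterol and fatty acid synthesis were higher together. SREBP2 switches on the cholesterol pathway when sterols in the endoplasmic reticulum are low, while LXR, activated by oxysterols, switches on efflux. Of 23 tested SREBP2 targets, 19 were higher and 1 lower, with a median of 0.27. Cyp51, which removes a methyl group from lanosterol, was at 139, 167 and 202 RPM against 195, 248 and 289 RPM (log2 difference 0.55, SE 0.05, adjusted p 1.97e-08); the ranges overlapped slightly, with experiment 2 higher in every treatment. Acat2 was at 57.5, 71.7 and 95.5 against 68.8, 95.0 and 114 RPM (log2 difference 0.37, SE 0.05, adjusted p 9.57e-06), Mvd at 26.0, 35.3 and 45.3 against 33.1, 47.3 and 59.3 RPM (log2 difference 0.37, SE 0.04, adjusted p 1.23e-06) and Pmvk at 11.2, 21.4 and 34.3 against 15.2, 30.1 and 49.9 RPM (log2 difference 0.46, SE 0.06, adjusted p 7.67e-06). The synthase Hmgcs1 had means of 229 and 281 RPM (0.28 ± 0.06). Srebf2, which encodes SREBP2, was the member called lower (−0.15 ± 0.06). CCAAT, the NF-Y site that stands beside sterol elements, was in 94.1% (16 of 17) of the promoters matched for the list. A sterol-element core, TCACNCCAC, was in 1 of these 17, that of Hmgcs1, and in 1.3% of all promoters; it is shown here, on the gene's strand and before its start site, with the match in capitals.
Hmgcs1, chr13:119690199-119690237, plus strand: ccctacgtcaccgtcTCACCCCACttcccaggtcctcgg

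Genes of fatty acid synthesis had 11 of 17 members higher and 1 lower. Fasn was at 72.8, 108 and 152 RPM against 112, 155 and 207 RPM (log2 difference 0.55, SE 0.05, adjusted p 1.24e-07) and Acly, which supplies its acetyl-CoA, at 65.3, 95.3 and 131 against 76.7, 116 and 141 RPM (log2 difference 0.24, SE 0.04, adjusted p 7.05e-05). The LXR and lipid efflux list had 9 of 16 higher and 2 lower and held larger single differences. Abcg1 and Abca1 export cholesterol to lipoproteins: Abcg1 was at 22.9, 25.8 and 36.1 RPM against 38.3, 52.9 and 93.5 RPM (log2 difference 0.99, SE 0.09, adjusted p 3.75e-08), and Abca1 had means of 18.4 and 28.5 RPM (0.69 ± 0.09). Plin2, which coats lipid droplets, was at 68.9, 79.8 and 114 against 99.97, 149 and 213 RPM (log2 difference 0.84, SE 0.05, adjusted p 6.15e-10), and Lipa, the lysosomal lipase, at 179, 222 and 271 against 243, 297 and 360.3 RPM (log2 difference 0.42, SE 0.04, adjusted p 5.93e-08). Npc1, which moves cholesterol out of lysosomes, and Nr1h2, which encodes LXR beta, were the members called lower (−0.20 ± 0.06 and −0.20 ± 0.06). Apoe was not called (adjusted p 0.435).

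**Figure D4:**
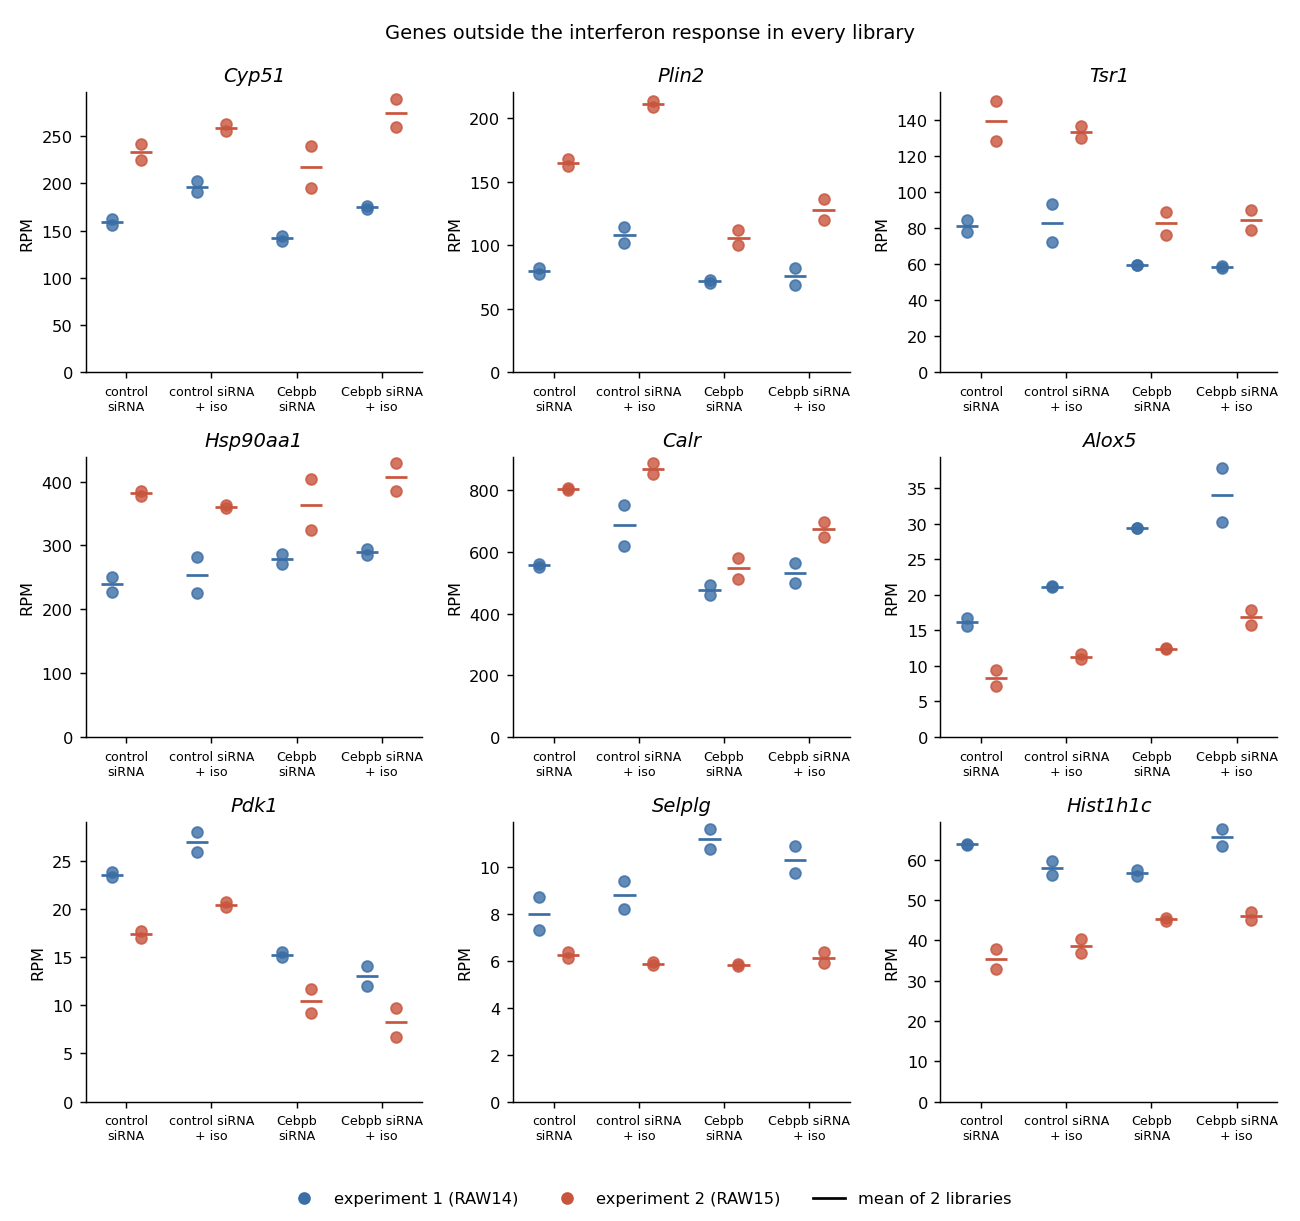
Each point is 1 library, placed by treatment and coloured by experiment, with RPM on an axis from 0 and a bar at the mean of the 2 libraries. Cyp51, Plin2, Tsr1, Hsp90aa1 and Calr are higher and Alox5, Pdk1, Selplg and Hist1h1c lower in experiment 2 in each of the 4 treatments; Alox5 spans 15.6 to 37.9 and 7.20 to 17.9 RPM.

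Genes of DNA replication and of mitosis differed in direction. Of 44 genes of DNA replication, 15 were higher and 0 lower, with a median of 0.14. The median of the replication list was 0.06 with control siRNA, 0.27 with Cebpb siRNA, and 0.06 and 0.16 with isoproterenol added to each. Fitted alone, the control siRNA libraries had 11 members higher and 1 lower (median 0.06), and the Cebpb siRNA libraries 5 and 0 (median 0.20). Pcna, the sliding clamp of DNA polymerases, was at 35.5, 57.2 and 80.9 RPM against 38.7, 69.3 and 97.0 RPM (log2 difference 0.27, SE 0.05, adjusted p 0.000306). Of 45 mitotic genes, 1 was higher and 12 lower, with a median of −0.08. Ccnb2, a cyclin of mitosis, was at 26.1, 41.9 and 57.5 against 19.1, 29.0 and 42.8 RPM (log2 difference −0.46, SE 0.05, adjusted p 3.56e-07), and the condensin subunit Ncapd2 at 57.1, 91.5 and 144 against 40.1, 72.8 and 107 RPM (log2 difference −0.36, SE 0.06, adjusted p 0.000133). In Cebpb siRNA libraries alone 3 mitotic genes were higher and 3 lower (median −0.02), and in control siRNA libraries alone 1 and 17 (median −0.06). Of 18 G1 cyclins, inhibitors and pocket proteins 0 were higher and 6 lower, among them Ccnd3 at 206, 250 and 274 against 158, 184 and 239 RPM (log2 difference −0.36, SE 0.05, adjusted p 4.64e-06), Rb1 at 22.1, 26.3 and 30.7 against 15.7, 19.4 and 25.4 RPM (log2 difference −0.45, SE 0.06, adjusted p 3.06e-06) and Rbl2 (−0.39 ± 0.07). Histone genes were lower for 9 of 34 and higher for 1, and their summed level was 744 to 925 RPM in experiment 1 and 675 to 776 RPM in experiment 2, which overlap slightly (exact permutation test within treatments, two-sided, p 0.00154, the smallest it can give, adjusted p 0.0185). Hist1h1c, a linker histone with a polyadenylated transcript, was at 56.0, 61.5 and 67.7 against 32.9, 42.7 and 47.0 RPM with no overlap (log2 difference −0.57, SE 0.07, adjusted p 1.03e-06).

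Glycolytic and hypoxia-responsive genes were lower more often than higher. Of 24 glycolytic genes 9 were lower and 1 higher, and of 22 hypoxia genes 9 were lower and 4 higher. In the control siRNA libraries alone 5 glycolytic genes were higher and 4 lower (median −0.09), and in the Cebpb siRNA libraries alone 0 and 7 (median −0.09). Pdk1, a kinase that inhibits pyruvate dehydrogenase, was at 12.04, 19.4 and 28.0 RPM against 6.70, 14.3 and 20.7 RPM (log2 difference −0.52, SE 0.07, adjusted p 1.96e-05). Eno2 was at 13.6, 18.1 and 23.01 against 8.28, 12.8 and 15.1 RPM (log2 difference −0.56, SE 0.08, adjusted p 2.49e-05), and Pfkm at 4.30, 5.51 and 6.19 against 1.80, 3.35 and 3.72 RPM with no overlap (log2 difference −0.78, SE 0.12, adjusted p 5.56e-05). The abundant Pkm was higher (0.16 ± 0.04), and Aldoa (−0.06 ± 0.04) and Ldha (0.03 ± 0.04) were not called. Among hypoxia genes, Ndrg1 was at 21.7, 31.1 and 41.2 against 13.3, 22.1 and 35.4 RPM (log2 difference −0.52, SE 0.07, adjusted p 1.78e-05) and Ddit4 (REDD1), which restrains mTORC1, at 14.1, 29.0 and 45.1 against 11.0, 17.8 and 29.8 RPM (log2 difference −0.57, SE 0.08, adjusted p 9.23e-06). Hilpda, which blocks lipolysis on lipid droplets, went the other way with means of 70.1 and 101 RPM (0.46 ± 0.08). Nuclear genes of the respiratory chain differed little, with 6 of 46 higher and 1 lower.

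The genes with the largest lower values came from varied processes. The rule that picked them also asks for a mean of at least 10 RPM and the same sign in all 4 treatments. Alox5 (5-lipoxygenase), the first enzyme of leukotriene synthesis, was at 15.6, 25.3 and 37.9 RPM in experiment 1 and 7.20, 11.96 and 17.9 RPM in experiment 2 (log2 difference −1.03, SE 0.07, adjusted p 6.15e-10). Thra, the thyroid hormone receptor alpha, was at 12.1, 13.6 and 17.6 against 3.82, 7.88 and 9.34 RPM with no overlap (log2 difference −1.02, SE 0.10, adjusted p 1.70e-07). Gcnt1, which branches O-glycans, was at 12.1, 16.7 and 28.0 against 4.81, 8.54 and 16.5 RPM (log2 difference −0.99, SE 0.09, adjusted p 2.73e-08). Azin2 and Paox, both of polyamine metabolism, were at 9.84, 13.2 and 18.5 and 29.6, 46.1 and 60.2 RPM against 5.11, 6.68 and 9.82 and 15.2, 26.7 and 40.6 RPM (log2 difference −0.97, SE 0.09, adjusted p 3.41e-08 and log2 difference −0.75, SE 0.07, adjusted p 9.64e-08). Tnfrsf9 (4-1BB), a costimulatory receptor, was at 9.66, 26.1 and 73.5 against 3.84, 16.1 and 44.2 RPM (log2 difference −0.73, SE 0.09, adjusted p 4.13e-06), and Map1lc3a, an autophagosome protein, at 22.2, 36.7 and 64.2 against 13.7, 21.1 and 36.7 RPM (log2 difference −0.73, SE 0.06, adjusted p 2.73e-08). Pdlim4, Lsr, Cyfip2, Dpep2 and Ypel3 differed by −0.84 ± 0.07, −0.82 ± 0.07, −0.80 ± 0.07, −0.73 ± 0.06 and −0.73 ± 0.08.

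At lower levels, Entpd1 (CD39), which removes extracellular ATP, had the lowest difference of all genes, at 3.31, 5.09 and 10.1 RPM against 0, 1.28 and 4.45 RPM (log2 difference −1.67, SE 0.14, adjusted p 1.30e-08). Since its lowest library is listed at 0, this value depends on the floor. The 3 genes that follow were above the floor in all 8 libraries of experiment 1 and listed at 0 in all 8 of experiment 2. Nptxr, a neuronal pentraxin receptor, was at 2.09 to 3.42 RPM in experiment 1 (adjusted p 1.70e-07; 0.166 with a floor of 2 RPM), and H2-Ob, a modulator of class II loading, at 1.27 to 2.73 RPM (adjusted p 0.000475). Scrn2 was at 1.05 to 1.37 RPM, so close to the floor that it was not called (adjusted p 0.149). No gene had the opposite pattern.

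Surface and adhesion genes were lower for 7 of 20 and higher for 1. Selplg (PSGL-1), the ligand of P-selectin, was at 7.29, 9.55 and 11.6 RPM against 5.76, 5.91 and 6.36 RPM with no overlap (log2 difference −0.66, SE 0.08, adjusted p 4.32e-06). Itgal, the alpha chain of LFA-1, was at 11.3, 20.5 and 37.1 against 7.84, 13.7 and 21.9 RPM (log2 difference −0.55, SE 0.07, adjusted p 4.65e-06), Itga6 at 27.3, 41.9 and 59.96 against 20.6, 31.3 and 46.7 RPM (log2 difference −0.38, SE 0.05, adjusted p 6.22e-06) and the tetraspanin Cd81 at 127, 158 and 204 against 101, 119 and 147 RPM (log2 difference −0.40, SE 0.04, adjusted p 4.48e-07). Itga4, which pairs to form VLA-4, was the member that was higher (0.42 ± 0.07). Of 40 lysosomal genes 12 were higher and 9 lower, with the sialidase Neu1 at 144, 162 and 169 against 115, 131 and 138 RPM (log2 difference −0.30, SE 0.04, adjusted p 4.33e-06) and Ctsz, a cathepsin, at 356, 401 and 496 against 402, 529 and 583 RPM (log2 difference 0.32, SE 0.05, adjusted p 3.74e-05).

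The macrophage identity of the line was present in both experiments, and 12 of its 26 tested genes were higher and 2 lower. Csf1r, the receptor for the growth factor of the lineage, was at 189, 235 and 308 RPM against 205, 226 and 356 RPM and was not called (log2 difference 0.05, SE 0.06, adjusted p 0.558). Lyz2 (lysozyme) was at 515, 603 and 1062 against 639, 745 and 1229 RPM (log2 difference 0.31, SE 0.04, adjusted p 2.45e-05), and Ptprc (CD45) at 333, 419 and 475 against 389.6, 433 and 634 RPM (log2 difference 0.24, SE 0.05, adjusted p 0.00101). Adgre1, which encodes F4/80, was low in both, at 3.31 to 6.66 against 3.47 to 5.94 RPM (log2 difference −0.20, SE 0.10, adjusted p 0.158). Csf2rb, the shared receptor chain for GM-CSF and IL-3, was lower, at 51.1, 75.3 and 117 against 25.5, 57.0 and 82.1 RPM (log2 difference −0.54, SE 0.06, adjusted p 1.18e-06). Markers of other cell types were at or near the floor: the epithelial, mast cell and erythroid lists were at 0 in all 16 libraries, and the fibroblast list summed to at most 1.39 RPM. The endothelial list summed to at most 3.29 RPM. The neutrophil and T and NK cell lists summed to at most 5.84 and 6.20 RPM, and the B cell list to at most 22.8 RPM, all of it from Ighm. The dendritic cell list summed to at most 30.1 RPM and includes Bst2, an interferon target.

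Genes of macrophage activation did not move as one. In the M1 list 8 of 18 were higher and 3 lower, among the higher ones Cxcl10, Ccl5 and Acod1, described above; Tnf was at 37.1, 48.0 and 53.9 RPM against 36.7, 48.7 and 51.7 RPM and was not called (log2 difference −0.03, SE 0.05, adjusted p 0.698). In the M2 list 3 of 11 were higher and 3 lower. Il1rn, the interleukin-1 receptor antagonist, was at 76.7, 238 and 364 RPM against 139, 403 and 781 RPM (log2 difference 0.87, SE 0.05, adjusted p 5.29e-10), whereas the lectins Mgl2 and Clec10a were at 46.5, 82.4 and 118 and 106, 178 and 317 RPM against 29.0, 51.3 and 77.5 and 83.3, 118 and 223 RPM (log2 difference −0.69, SE 0.04, adjusted p 6.15e-10 and log2 difference −0.47, SE 0.06, adjusted p 1.41e-06). Of 14 chemokines 8 were higher and 2 lower, with Ccl9 at 205, 405 and 566 against 316, 599 and 813 RPM (log2 difference 0.56, SE 0.04, adjusted p 6.15e-10). Of 30 Toll-like receptors and sensors 15 were higher and 6 lower, including Tlr3, the receptor of double-stranded RNA, at 11.4, 24.3 and 38.9 against 22.2, 36.3 and 55.7 RPM (log2 difference 0.71, SE 0.07, adjusted p 6.97e-08) and Casp1 at 37.1, 53.5 and 70.3 against 53.1, 71.6 and 108 RPM (log2 difference 0.51, SE 0.04, adjusted p 2.49e-08). In the list of genes responsive to cAMP, the second messenger of β-adrenergic receptors, 3 of 22 were higher and 5 lower, led by Rgs2, a brake on G protein signalling, at 411, 552 and 629 against 651, 773 and 909.9 RPM with no overlap (log2 difference 0.52, SE 0.04, adjusted p 3.32e-09).

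**Figure D5:**
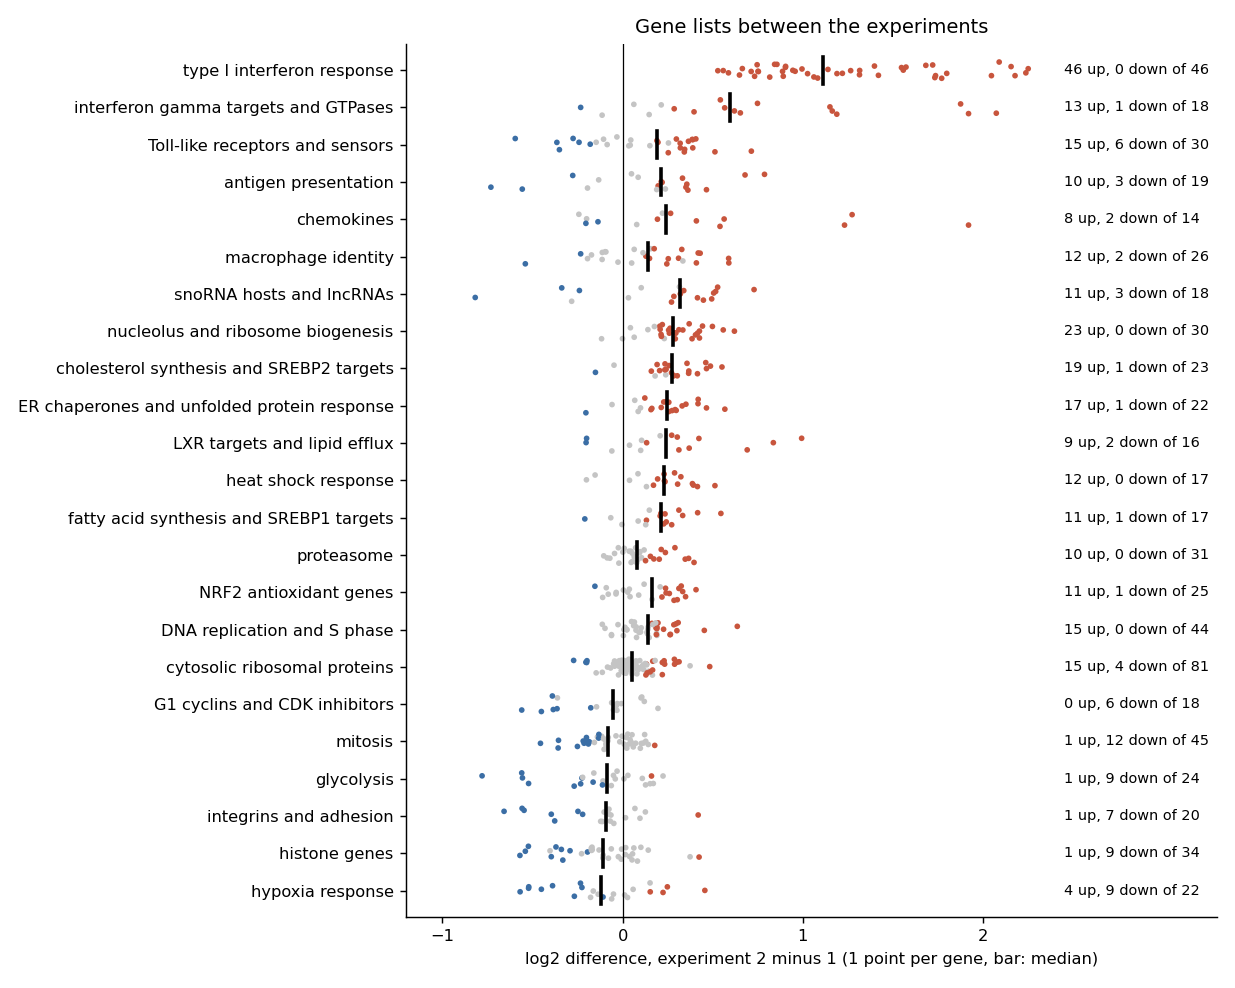
Each point is a tested gene, placed by its log2 difference, experiment 2 minus experiment 1, in 23 gene lists that share some members; red, called higher; blue, called lower; grey, not called; black bars, list medians. The medians are 1.11 for the type I interferon list and 0.59 for the interferon gamma list, 0.28 for the nucleolus list, and −0.08 for mitosis.

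The remaining lists held smaller differences, given here by their counts of higher and lower members. Over all genes tested, 17.0% were higher and 15.5% lower. Several of these counts, such as those of clock, actin and immediate early genes, were near those shares. The NRF2 list had 11 of 25 higher and 1 lower, the p53 list 2 of 17 higher and 5 lower, immediate early genes 6 of 29 and 5, clock genes 2 of 15 and 2, autophagy 7 of 23 and 4, apoptosis 2 of 26 and 5, actin and migration 6 of 33 and 6, complement and Fc receptors 4 of 14 and 4, osteoclast genes 3 of 12 and 2, matrix genes 4 of 13 and 4, methylation enzymes 3 of 25 and 5, and metal handling 2 of 20 and 1. The NF-κB list had 11 of 33 higher and 3 lower, but 6 and 8 in the control siRNA libraries alone (median −0.03 against 0.10 overall), the C/EBP family 2 of 7 and 1, and mitochondrial mRNAs 2 of 7 and 2.

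Differences were spread over the genome. Chromosomes had medians between −0.031 and 0.023 and between 29.5% and 36.0% of their genes called. Among windows of 50 neighbouring genes, the highest median (0.174) was on chromosome 11 from 80477023 to 86304443 (GRCm38), a stretch that holds Slfn and Ccl genes, with 22 genes higher and 3 lower. The lowest (−0.116) was on chromosome 17 from 25790080 to 28326572, with 2 higher and 18 lower. Calls and directions moved with expression level: of 5 equal groups by mean RPM, the lowest had 6.1% of its genes higher and 10.5% lower, and the highest 32.0% and 11.9%. Grouped the same way by transcript length, the longest had 14.7% higher and 20.9% lower, against 18.3% and 11.2% for the shortest. The share of reads on genes also differed, at 61.9% to 64.0% in experiment 1 and 61.7% to 64.8% in experiment 2 (means 62.6% and 63.9%, exact permutation test within treatments, two-sided, adjusted p 0.0231), as did mitochondrial mRNA (means 5410 and 5692 RPM, adjusted p 0.0259 by the same exact test). The part of these library measures in the gene differences was not tested.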

How the data were processed

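The deposited log2 values are each gene's reads per 1 M sequenced reads (RPM), a unit read from the values, which are whole reads on that scale; the authors list values of 1 RPM or less as 0, which is 9 to 25 reads depending on the library. The submitters' processing notes name STAR 2.5.3a and the GRCm38 build. The deposited values list multimapping reads (19.4% to 22.3%) and ambiguous reads (0.82% to 1.02%) apart from the genes. For the use of strand in counting nothing is stated in the labels, so reads antisense to a gene may be counted in it. All RPM printed are as deposited. For tests, values under a common floor of 1.0837 RPM were set to it, the libraries were brought to one scale with trimmed log ratios (30% by ratio, 5% by level), and 11141 genes above the floor in at least 4 libraries were fitted in limma 3.58.1 (R 4.3.3; trend and robust variance) with terms for the 4 treatments and the experiment; the differences of siRNA and isoproterenol effects came from a fit with all 8 groups. P-values were adjusted by Benjamini-Hochberg over all genes tested. A fold change understates that of genes near the floor. The fits were tested on simulated data.

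Named genes were the 12 highest and 12 lowest called genes averaging 10 RPM or more with 1 sign in all 4 treatments, 5 each way for the differences of effects, up to 4 per list by smallest p, genes at the floor in 1 experiment only, and fixed genes; genes past 2-fold and others named for their role were chosen after their values were seen. Members and lists were chosen with earlier results of these data known, and 2 lists (interferon ligands; interferon receptors, kinases and factors) were added after values were seen. Symbols written as dates in the files (26, of which 14 were tested) are not named, and a few other genes are not reported here. Library measures were compared by exact permutation within treatments (1296 permutations, smallest p 0.00154). Alternatives covered scaling, filters, the floor, treatment terms, library weights, single siRNA arms, a replicate block and each library left out.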

Additional observations from a re-analysis of the deposited data

Results flagged for a closer look

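In experiment 2 the Cebpb siRNA library of replicate 2 held 9.42 M reads, far below the other 7 libraries of that experiment. In experiment 1 the control siRNA and isoproterenol library of replicate 2 had 64.0% of its reads on genes, above the other 7. Chance alone marks about 1 in 20 such groups of libraries.

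The effect of Cebpb siRNA differed between the experiments, by the test of that difference in limma, for 10 genes named by rule. The signed effect was higher in experiment 2 for Neat1 by 1.02 on the log2 scale (effects −1.202 and −0.18, so weaker in experiment 2). It was also higher for Neurl1b by 0.91 (effects −0.29 and 0.62, adjusted p 0.00839), for Nfkbie by 0.84 and for Mmp9 by 0.82. For Fxyd2 it was higher by 0.74 (effects 1.02 and 1.76, adjusted p 0.023, lost with 1 library left out). The signed effect was lower in experiment 2 for Cmpk2 (−1.34), Ifi44 (−1.12), Rtp4 (−1.11), Irf7 (−1.08) and Hal (−0.92). For Hal the effects were −0.79 and −1.71, so its reduction by the siRNA was stronger in experiment 2.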

How the results depend on the processing

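Of 3627 genes called between the experiments, the count was 3482 with a replicate block as a fixed term, 4360 with a random block within experiments, 3622 and 3500 under other scalings, and 3205 to 3894 with each library left out. It fell to 639 without treatment terms and to 1463 in the Cebpb siRNA libraries alone, against 3432 in the control siRNA libraries, which are as many; the cause was not tested. Same-numbered libraries of an experiment showed little common deviation (12 correlations between −0.19 and 0.23, median −0.01, 3 of them above 0.1). Between experiments 1 of 16 such correlations was above 0.1. With 2 replicates per group these values cannot show what same-numbered libraries share, and the labels do not state it. The 67 genes with a different siRNA effect became 49 with the replicate block and 33 to 299 with 1 library left out. The count was 299 without the Cebpb siRNA library of replicate 2 of experiment 2, 112 without the Cebpb siRNA and isoproterenol library of replicate 1 of experiment 2, and 33 to 43 without any 1 of 11 others; the cause was not tested. Among these 11 were both control siRNA libraries of each experiment (42, 40, 34 and 41), the Cebpb siRNA libraries of experiment 1 (40 and 34), control siRNA and isoproterenol replicate 1 of experiment 1 (42) and replicate 2 of experiment 2 (33), and Cebpb siRNA and isoproterenol replicates 1 and 2 of experiment 1 (37 and 43) and replicate 2 of experiment 2 (43). The isoproterenol count was 0 in every setting run. All 46 genes of the type I interferon list were called with each library left out (list median 1.04 to 1.17). Permuted over all libraries without treatment strata, the two-sided exact permutation p was 0.248 for unmapped reads, 0.0584 for reads on no feature, 0.0876 for ambiguous reads, 0.315 for mitochondrial mRNA and 0.0945 for macrophage identity genes. No called gene among those named changed sign under these alternatives. Calls were lost, however. Of 192 named genes called, 129 lost the call without treatment terms. In the Cebpb siRNA libraries alone 50 lost it, and in the control siRNA libraries alone 10. Balances of calls did change in several lists. In the control siRNA libraries alone, NF-κB targets went from 11 higher and 3 lower to 6 and 8, and glycolysis from 1 and 9 to 5 and 4. Autophagy went from 7 and 4 to 3 and 4 there, and osteoclast genes from 3 and 2 to 2 and 4. In the Cebpb siRNA libraries alone, mitosis went from 1 and 12 to 3 and 3 and lysosomal genes from 12 and 9 to 2 and 3. The cAMP list went from 3 and 5 to 3 and 1 there. These lists are examples and not all that changed. Without scaling, the share of higher calls within Cebpb siRNA moved from 57.3% to 44.8%. Levels at or under 1 RPM cannot be seen, so genes listed at 0 are limited by that floor rather than by depth.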

Other observations

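RAW 264.7 was derived from a male mouse, yet the 8 Y-linked genes listed were at 0 in all 16 libraries, while Xist, the RNA that silences an X chromosome, was at 375, 450 and 512 RPM (lowest, median and highest) in experiment 1 and 309, 348 and 514 RPM in experiment 2. Both experiments shared this pattern. Xist was lower in experiment 2 (log2 difference −0.34, adjusted p 0.000421 in limma), with overlapping ranges.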
